A study of Mus musculus with 2 samples.

Results

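In RNA from the mouse embryonic midbrain, 56 protein-coding genes carried most of their estimated abundance on a single transcript that the GENCODE annotation classes as a retained intron. They were chosen by 2 measured values. The gene had to reach at least 20 TPM (a level divided by transcript length and scaled to the library) in both libraries, and 1 retained-intron transcript had to hold at least 50% of the gene's abundance in both. Of 43346 gene entries in the tables, 6244 were protein-coding genes at that level, 2981 of these had a retained-intron transcript to which reads could be assigned, and 56 met the rule (0.897% of the 6244). The share that chose them, called IsoPct in the tables, and the gene level are therefore given as a description and support nothing. Counted in reads rather than in abundance, the same transcript led in both libraries in 24 of the 56 genes.

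An intron is the part of a primary transcript that the spliceosome removes between a donor site, usually beginning GT, and an acceptor site, usually ending AG. An annotated retained-intron transcript has an exon that holds such intronic sequence, whole or in part, and no coding frame is assigned to it. Transcripts with a kept intron are often held in the nucleus or degraded after meeting a premature stop codon, and neural development is one of the settings in which regulated retention is known. An annotated model of this type can also be a fragment that starts or ends inside an intron, and then only a short stretch distinguishes it from the messenger RNA.

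The material was midbrain from B6NCrl mouse embryos at 13.5 days, untreated and with no engineered allele in the labels, from pooled male and female tissue. Total RNA longer than 200 nt, 10 ng per library with spike-in RNA added, was sequenced in 2 libraries that the labels call biological replicates 1 and 2 of 1 group. Nothing else was compared, so no test between conditions exists and each SD has n = 2. The labels do not state that the replicates came from separate litters, and the spread between them may be partly technical.

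The libraries held 32151659 and 41915240 estimated reads in replicates 1 and 2, of which spike-ins took 2.22% and 4.06%. All 8 midbrain markers were detected at 1 TPM or more in both libraries, and 0 of 6 Hox genes of the hindbrain and spinal cord were, the highest standing at 0.24 TPM. Markers of neurons (4 of 4), progenitors (4 of 4), microglia (4 of 4), endothelium (3 of 3) and red blood cells (4 of 4) were detected as well. In bulk RNA, fewer cells of a type and less RNA per cell cannot be told apart, and nuclear and cytoplasmic RNA were not separated. The labels and file headers leave unstated whether reads were assigned by strand, so values of genes that overlap on opposite strands are uncertain.

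The sequences that set the members' transcripts apart from their coding partners ranged from a few bases to more than a kilobase. Of the 14 whole introns that lie between coding bases of the partner transcript, so that their letters bear on the reading frame, 8 short ones are shown as examples. Intron bases are in capitals and up to 10 flanking exon bases in lower case, 5′ to 3′ on the gene's strand, from the GENCODE M21 transcripts of GRCm38.
Rps20, chr4:3835292-3835483, minus strand, intron of 192 nt: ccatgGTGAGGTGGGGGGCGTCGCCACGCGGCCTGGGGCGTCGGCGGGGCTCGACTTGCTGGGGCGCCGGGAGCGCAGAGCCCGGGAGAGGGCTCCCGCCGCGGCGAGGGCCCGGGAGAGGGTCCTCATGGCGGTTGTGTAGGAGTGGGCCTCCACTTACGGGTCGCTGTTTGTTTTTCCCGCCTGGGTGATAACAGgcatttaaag
Ncl, chr1:86352320-86352509, minus strand, the shorter of its 2 introns, 190 nt: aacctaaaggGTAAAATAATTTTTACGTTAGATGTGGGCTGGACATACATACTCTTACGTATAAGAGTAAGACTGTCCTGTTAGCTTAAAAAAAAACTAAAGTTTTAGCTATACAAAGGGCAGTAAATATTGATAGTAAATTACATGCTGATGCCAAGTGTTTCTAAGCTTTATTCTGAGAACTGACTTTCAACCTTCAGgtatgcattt
Mrps24, chr11:5707556-5707623, minus strand, 68 nt: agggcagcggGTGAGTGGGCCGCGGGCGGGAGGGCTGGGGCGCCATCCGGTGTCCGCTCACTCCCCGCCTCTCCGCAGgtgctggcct
Mrps26, chr2:130564228-130564307, plus strand, 80 nt: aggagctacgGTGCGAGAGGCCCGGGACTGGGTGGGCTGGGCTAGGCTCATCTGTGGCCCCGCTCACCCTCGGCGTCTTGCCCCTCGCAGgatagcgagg
Tbl3, chr17:24705318-24705396, minus strand, 79 nt: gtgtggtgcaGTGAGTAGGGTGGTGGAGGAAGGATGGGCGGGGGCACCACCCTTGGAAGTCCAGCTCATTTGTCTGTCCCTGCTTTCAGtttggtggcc
Krr1, chr10:111977238-111977314, plus strand, 77 nt: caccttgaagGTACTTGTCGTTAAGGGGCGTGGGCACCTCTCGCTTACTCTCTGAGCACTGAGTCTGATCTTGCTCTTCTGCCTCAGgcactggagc
Agrn, chr4:156168821-156168902, minus strand, 82 nt: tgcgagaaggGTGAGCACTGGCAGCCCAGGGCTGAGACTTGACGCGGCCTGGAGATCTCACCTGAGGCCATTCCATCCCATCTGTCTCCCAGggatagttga
Kdelc1, chr1:44112883-44113002, minus strand, 120 nt: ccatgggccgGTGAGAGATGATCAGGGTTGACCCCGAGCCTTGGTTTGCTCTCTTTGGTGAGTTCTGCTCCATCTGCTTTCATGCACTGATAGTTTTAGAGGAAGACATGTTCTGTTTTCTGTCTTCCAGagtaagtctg
All 8 begin with GT and end with AG, and the Rps20 intron follows directly on the start codon.

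A second set of sequences shows the other extreme, transcripts whose intronic part is under 30 nt and sits at 1 end of the transcript or of an exon. Intronic bases are again in capitals and 15 coding exon bases in lower case.
Timm17a, chr1:135309767-135309770, minus strand, end of its first exon: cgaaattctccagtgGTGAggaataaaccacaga
Sri, chr5:8059342-8059352, plus strand, 5′ end: TTTTTTTAAAGgacggacaaattgat
Gins2, chr8:120586193-120586208, minus strand, 5′ end: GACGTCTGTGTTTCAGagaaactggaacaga
Ufm1, chr3:53863671-53863689, minus strand, 5′ end: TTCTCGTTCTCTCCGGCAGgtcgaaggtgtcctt
Psmb4, chr3:94884898-94884916, minus strand, 3′ end: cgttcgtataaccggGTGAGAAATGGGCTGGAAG
Grcc10, chr6:124740696-124740715, minus strand, 5′ end: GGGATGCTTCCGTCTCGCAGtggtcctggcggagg
Birc6, chr17:74697356-74697384, plus strand, 5′ end: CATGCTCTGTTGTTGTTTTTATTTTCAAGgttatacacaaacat
In Timm17a, a mitochondrial import protein, the 4 capital letters are the first bases of the next intron, and the rest of that intron is spliced out. Ufm1 was compared with a coding transcript of 637 nt only, because its 3054-nt coding transcript has another length in M21. In Ufm1, 140 nt lay in no other transcript compared, so more than its 19 capital letters sets it apart.

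The structure of the members' transcripts was compared with the coding transcripts of the same genes for the 50 whose length was the same in the deposited tables and in M21. Other transcripts of a gene entered the comparison only where their own length was also the same. Of these, 15 (30%) held at least 1 whole intron, 20 (40%) started in an intron, 13 (26%) ended in one, Timm17a held 4 intronic bases at the donor end of an exon, and Ube2m held none. Over all 7560 retained-intron transcripts of coding genes at the same level, 29.6% held a whole intron, 26.1% started in an intron, 33.4% ended in one and 8.47% did both. The members were thus close to the background in whole introns. The remaining 6 members, Cir1, Hbb-bs, Pagr1a, Tmcc1, Tmem108 and Uchl1, were not compared in structure. Their transcripts have other lengths in M21, by 1 nt in Uchl1 and by more in the others.

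The members' transcripts held less intronic sequence than such transcripts do in general. The median was 103 intronic nt per transcript against 306.5 over all 7560, although the transcripts had similar lengths (760.5 and 786 nt). Bases found in no other transcript of the gene numbered 88.5 in the median against 242. At most 100 such bases were found in 30 of 50 (60%) against 28.2%, and at most 20 in 13 of 50 (26%) against 14.9%. Assignment of a read to these transcripts rather than to a coding partner rests on those bases, on splice junctions and on where the transcripts end.

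The 3′ ends also lay unlike those of other retained-intron transcripts. In 33 of 50 (66%) the transcript ended inside the last exon of a coding transcript of the gene, against 26.8% of all 7560. That coding exon went on for more than 500 nt beyond this point in 15 of 50 (30%) against 7.69%, and for more than 2000 nt in 11 (22%) against 1.73%. These distances were chosen after the values were seen. The 11 were Gga2, Tbl3, Cnih4, Gins2, Rps20, Mrps26, Taf10, Mrps25, Ncl, Tsn and Timm17a, and the stretch ran from 2043 nt in Gga2 to 6603 nt in Timm17a. Rps20 had 1 coding transcript in the tables, of 3706 nt, and its retained-intron transcript of 582 nt stopped 3139 nt before the end of it. Ncl showed the same arrangement with 5776 nt and Mrps26 with 3301 nt. In Rps20, Ncl and Mrps26 the retained-intron transcript was thus the shorter 3′ alternative as well as the one with the intron. The part of each in its share was not tested. Of the others among the 11, only Tbl3 held a whole intron. Gga2, Cnih4, Gins2, Taf10, Mrps25 and Tsn started in an intron, and Timm17a held intronic bases at the donor end of an exon. In Cnih4, Tbl3 and Timm17a another coding transcript ended nearer to the retained-intron transcript's 3′ end.

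**Figure D1:**
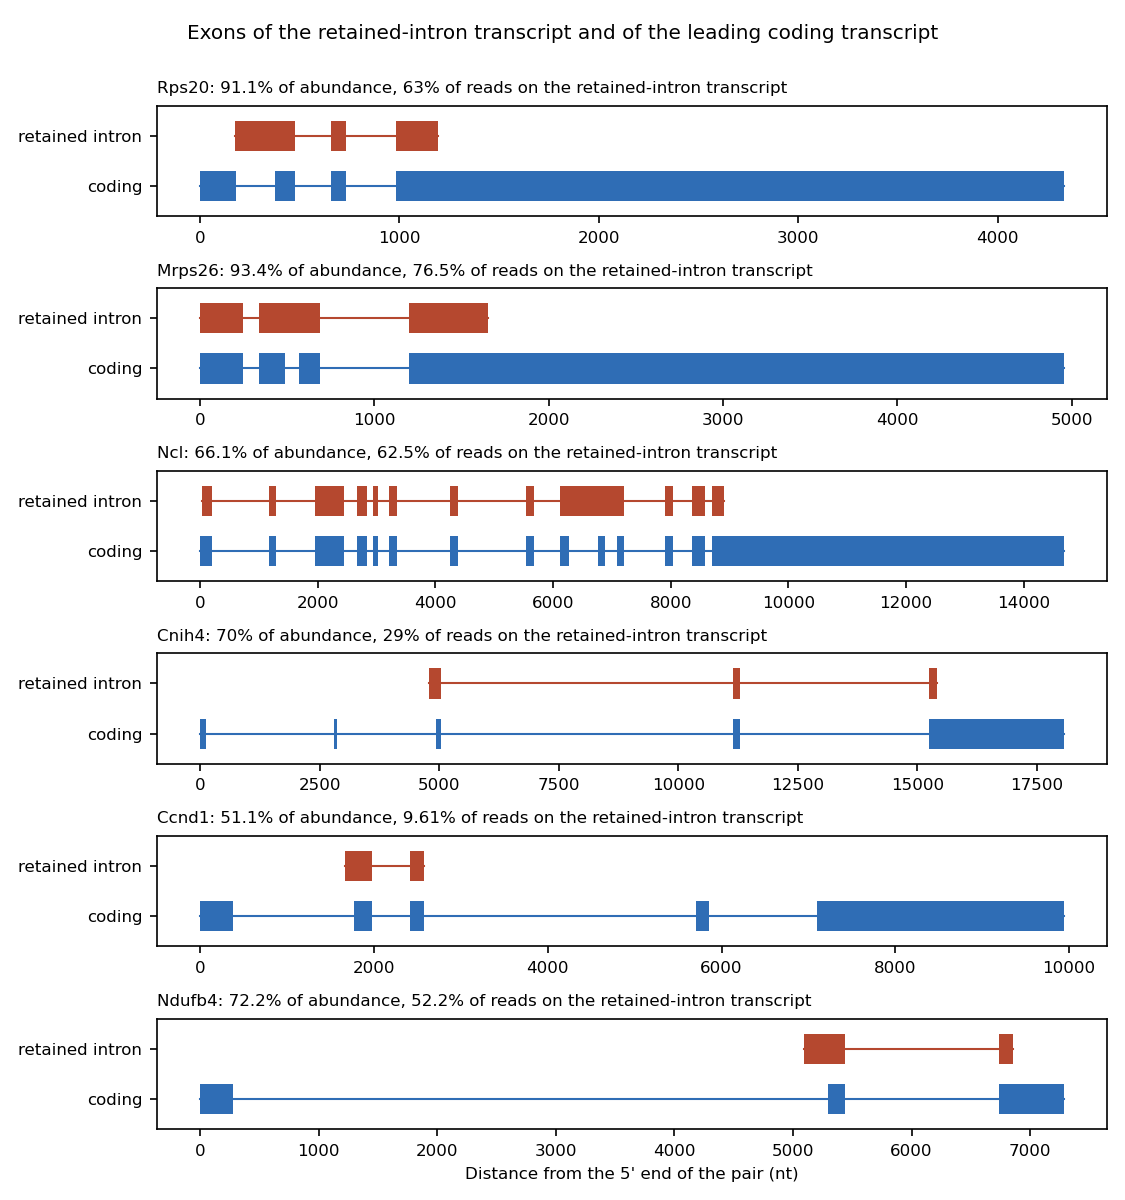
Exons (boxes) of the leading retained-intron transcript (red) and of the leading coding transcript (blue) of 6 genes, with the distance in nt from the 5′ end of the pair on the horizontal axis. In Rps20, Mrps26 and Ncl the red model fills an intron and ends far before the blue one, while in Cnih4, Ccnd1 and Ndufb4 it starts inside an intron and covers part of the gene.

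The 15 transcripts with a whole intron held 16 introns, since Ncl held 2. All 16 had GT and AG at their ends. They had a median of 96.5 nt, a range from 63 nt in Dalrd3 to 1302 nt in Rsrp1, and 8 of 16 were under 100 nt. The median introns of the same coding transcripts had a median of 186 nt. Of the 16, 9 were shorter than the median intron of their own transcript and 6 were its shortest. The Dalrd3 intron is among these 6 only because its coding transcript has no other intron. The median GC content of the 16 was 56.81% against 51.06% for the rest of the same transcripts. However, 5 of the 16 were below the rest, among them both Ncl introns at 32.6% and 32.5%. Lengths, GC content and stop codons were not computed for introns held by other retained-intron transcripts. These values are therefore not shown to be particular to the members.

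Most of these introns would interrupt the protein. Of 14 that lie between coding bases, 12 contained a stop codon in the frame carried over from the exon before. In the 190-nt Ncl intron, in Tbl3 and in Kdelc1 that stop began at the second intron base, as can be read in the sequences above. In Rps20 it began at base 184 of 192. The exceptions were the mitochondrial ribosomal genes Mrps24 and Mrps26, whose introns have no stop in that frame. Neither length is a multiple of 3, and the first stop in the shifted frame began at bases 181 and 83 counted from the intron's first base, in the exon after it. In all, 7 of the 16 introns were a multiple of 3 in length.

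IsoPct divides reads by transcript length, so a short transcript needs few reads to lead. The share of the gene's reads assigned to the same transcript, with no division by length, was lower than IsoPct in 48 of 56 genes. Its median was 42.4% in replicate 1 and 41.6% in replicate 2, against 61.3% and 61.7% for IsoPct. The members' retained-intron transcripts had a median length of 755 nt (294 to 5144), while the leading coding transcript had a median of 2821 nt, and the former was shorter in 50 of 55 genes. The read share comes from the same estimate as IsoPct and is not independent of it.

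By reads, the members fell into a set where the retained-intron transcript led and a set where it did not. At least 50% of reads lay on it in both libraries in 23 genes, under 50% in both in 30, and the side differed between libraries in 3 (Hbb-bs, Ndufb4 and Serhl). It was the transcript with the most reads in both libraries in 24 genes and in neither in 28, and in those 28 a coding transcript had the most reads in both. It held under 25% of reads in both libraries in 14 genes and under 15% in 6 (Tmcc1, Fsd1l, Ccnd1, Ufm1, Tpr and Gins2). The opposite end of the order held Pagr1a, Rsrp1, Asb6, Mrps26, Tbl3 and Krr1, with mean read shares from 74.8% to 100%.

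**Figure D2:**
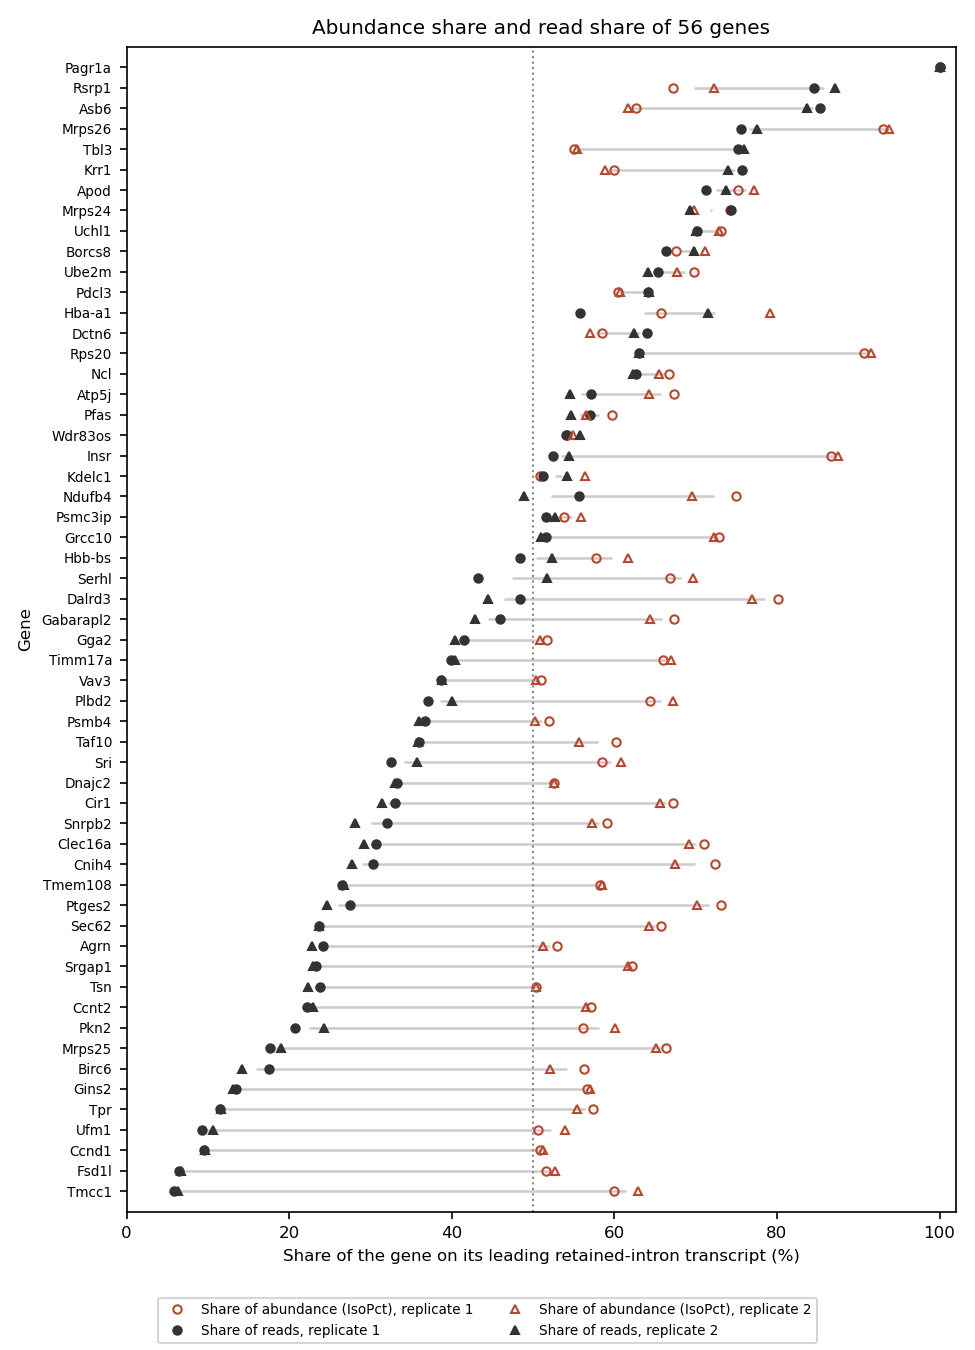
Share of each gene on its leading retained-intron transcript, by abundance (open red symbols) and by reads (filled black symbols), for 56 genes in replicate 1 (circles) and replicate 2 (triangles), ordered by mean read share. Grey lines join the 2 means of a gene and the dotted line marks 50%. Read shares run from 6.08% in Tmcc1 to 100% in Pagr1a, and in 48 genes they lie left of the abundance share.

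Read shares were higher where the transcript held a whole intron. In the 15 genes whose transcript held a whole intron, the median read share was 62.98% and 13 had at least 50% of reads in both libraries (the exceptions were Agrn and Dalrd3). In the 35 others of known structure the median was 34.16% and 8 had at least 50%. The abundance shares that chose the genes were alike, with medians of 62.15% and 60.61%. The transcripts had a median length of 2071 nt in the first set and 656 nt in the second. At a given abundance share, the read share follows from the lengths of the gene's transcripts. The difference in read share is therefore no separate result about structure.

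Genes of RNA processing, ribosomes and translation formed the largest group by role, with 11 members, a median read share of 63.0% and at least 50% of reads in both libraries in 7. The roles were assigned by hand after the members were known. They were not assigned over the 6244 coding genes at the level, so the size of a role group is no result about the members. Rsrp1, an arginine- and serine-rich protein related to splicing factors, stood at 512 and 474 TPM in replicates 1 and 2. Its transcript with a 1302-nt intron took 67.2% and 72.3% of abundance and 84.5% and 87.1% of reads. Only 13 nt of it lay in no other transcript compared, so nearly all of that intron is shared with other transcripts of the gene. Here the retained-intron transcript (3051 nt) was longer than the coding one (1749 nt), so the read share exceeded the abundance share.

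Rps20, a protein of the small cytosolic ribosomal subunit, stood at 283 and 274 TPM. Its transcript ENSMUST00000103009, with the intron printed above, took 90.7% and 91.6% of abundance and 63.0% of reads in each library (95% interval 61.5 to 64.5 in replicate 1). The coding transcript was given 19.4 and 19.3 TPM. Ncl, the nucleolar protein nucleolin, stood at 197 and 186 TPM, with 66.8% and 65.5% of abundance and 62.6% and 62.3% of reads on a transcript of 3072 nt. No other M21 gene overlapped the exons of these Rps20 and Ncl transcripts.

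The mitochondrial ribosome had 3 members. Mrps26 gave 93.1% and 93.8% of abundance and 75.5% and 77.6% of reads to its retained-intron transcript at gene levels of 66.9 and 74.0 TPM. Mrps24 gave 74.2% and 69.8% of abundance and almost the same share of reads (74.3% and 69.3%). Its 700-nt transcript lies in length between the 995-nt coding one and a second retained-intron transcript of 503 nt, which took 15.5% and 16.8% of abundance and 10.4% and 11.2% of reads. Mrps25 differed from both. Its 565-nt transcript starts in an intron and took 66.4% and 65.1% of abundance but 17.7% and 19.0% of reads, the coding transcript being 6073 nt long.

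Krr1 and Tbl3, both factors of small-subunit ribosome assembly, had high read shares. Krr1 gave 75.6% and 73.9% of reads to a 3451-nt transcript with a 77-nt intron, and Tbl3 75.2% and 75.9% to a 2767-nt transcript with a 79-nt one. On the other strand, Glipr1 overlaps 352 nt of the Krr1 transcript and Noxo1 overlaps 72 nt of the Tbl3 one. Snrpb2, a U2 snRNP protein, gave 32.03% and 28.1% of reads and Tsn, the nucleic-acid-binding protein translin, 23.8% and 22.3%. Tsn also had a second short retained-intron transcript with 35.7% and 34.7% of abundance, so that its 7063-nt coding transcript was left with 9.69% and 11.1% of abundance although it held 57.2% and 61.3% of reads. Dalrd3, known from tRNA modification, gave 80.1% and 77.0% of abundance and 48.4% and 44.4% of reads to a 410-nt transcript, of which 379 nt overlap exons of Wdr6 on the other strand.

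Genes of transcription, the cell cycle and the nucleus numbered 8, with a median read share of 27.4%. Ccnd1, the G1 cyclin D1, stood at 113 and 109 TPM. A 470-nt transcript (chromosome 7, 144937295 to 144938197) took 50.8% and 51.3% of that abundance with 9.53% and 9.69% of its reads, and the 3740-nt coding transcript had the other 90.5% and 90.3% of reads. Tpr, of the nuclear pore basket, and Gins2, of the replicative helicase, were alike in this, at 11.5% and 11.6% and at 13.4% and 13.1% of reads. Ccnt2, a cyclin of the elongation factor P-TEFb, gave 22.1% and 22.9%, Cir1, a transcriptional corepressor, 33.0% and 31.4%, and Taf10, a subunit of TFIID, 35.9% and 35.8%. Psmc3ip, a cofactor of homologous recombination, gave 51.6% and 52.7%.

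Pagr1a, a subunit linked to histone methyltransferase complexes, is a special case. The tables list 1 transcript for it, of 4405 nt, which therefore took 100% in both libraries at 26.7 and 28.8 TPM. In M21 that transcript belongs to another gene, Gm42742, and overlaps 2797 nt of Prrt2 on the same strand. No coding transcript competed for the reads, so neither share says anything about intron retention in Pagr1a.

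Of the globins, Hba-a1 was uncertain because reads can be shared with a near-identical copy. Hba-a1, an alpha-globin of red blood cells, stood at 1868 and 2012 TPM, the highest level among the members, and its 494-nt retained-intron transcript took 65.7% and 79.2% of abundance. The matching transcript of its copy Hba-a2 has the same length and differs from it at 1 base, and it was given 0 and 0.52 TPM. Over both genes, at 6650 and 6963 TPM, the retained-intron transcripts made up 18.5% and 22.9% of abundance. The copies together would not have met the rule. Hbb-bs, an adult beta-globin, gave 57.8% and 61.7% of abundance and 48.4% and 52.3% of reads, and its likeness to other beta-globin genes was not examined.

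The 3 members of mitochondrial respiration and import had read shares near the middle of the range. Atp5j, a subunit of ATP synthase, stood at 707 and 649 TPM with 57.2% and 54.5% of reads on a transcript of 526 nt that starts in an intron. Ndufb4, of respiratory complex I, gave 55.6% and 48.9% of reads, and Timm17a 39.9% and 40.4% to the 565-nt transcript with 4 intronic bases, which covers only part of its longest coding transcript of 7280 nt.

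Protein turnover, folding and autophagy had 10 members, with mean read shares from 9.93% in Ufm1 to 84.5% in Asb6. Uchl1, an abundant deubiquitinase of neurons, stood at 875 and 817 TPM. Its retained-intron transcript (979 nt, chromosome 5, 66676892 to 66687229 in M21) took 73.1% and 72.9% of abundance and 70.2% and 70.03% of reads, and its coding transcript (1167 nt) was given 218 and 204 TPM. Asb6, a substrate receptor of ubiquitin ligases, gave 85.2% and 83.7% of reads to a transcript with a 724-nt intron, and its coding transcript was given 0.19 and 0.47 TPM. Ube2m, the conjugating enzyme of NEDD8, gave 65.4% and 64.1%, and Pdcl3, a phosducin-like chaperone, 64.1% and 64.2%.

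In the rest of this group coding transcripts held most reads. Gabarapl2, an autophagosome protein, gave 46.0% and 42.8% of reads, the proteasome subunit Psmb4 36.7% and 36.0%, the ribosome-bound chaperone Dnajc2 33.2% and 33.1%, and Clec16a, of mitophagy, 30.7% and 29.1%. Birc6, a giant ubiquitin-conjugating enzyme whose coding transcript has 15768 nt, gave 17.5% and 14.2%. Ufm1, a ubiquitin-like modifier, gave 9.23% and 10.6% to a 381-nt transcript that carried 50.6% and 53.9% of abundance.

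The secretory pathway and transport had 9 members with a median read share of 40.9%. Dctn6, of the dynactin complex, gave 64.0% and 62.4% of reads, but all 66 intronic nt of its transcript lie in exons of Gm26768 on the other strand. Borcs8, of a lysosome-positioning complex, gave 66.4% and 69.8%, and Kdelc1, of the endoplasmic reticulum, 51.2% and 54.1%. Wdr83os, an endoplasmic reticulum protein needed for membrane insertion, gave 54.1% and 55.8%, but its 109-nt intron lies within Wdr83 exons on the other strand, and 306 nt of the transcript overlap that gene. Sri, a calcium-binding protein, gave 32.6% and 35.7%, the Golgi adaptor Gga2 41.5% and 40.4%, the cargo receptor Cnih4 30.3% and 27.7% and the translocation protein Sec62 23.6% and 23.7%. Tmcc1, an endoplasmic reticulum membrane protein, had the lowest read share of all. Its 294-nt transcript took 59.9% and 63.0% of abundance with 80.89 and 131 estimated reads, which were 5.79% and 6.38% of the gene's reads. The same transcript has 5486 nt in M21, the release its type comes from, and its abundance share rests on the length in the tables.

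Among the 7 members of receptors, signalling and cell shape, Insr, the insulin receptor, had the highest share. Its 1675-nt transcript (chromosome 8, 3211101 to 3279551) ends in an intron, 60179 nt before the nearest coding 3′ end. It took 86.7% and 87.5% of abundance and 52.5% and 54.5% of reads, and the 9355-nt coding transcript was given 5.62 and 5.5 TPM. Srgap1, which acts in Slit-Robo signalling, and Vav3 had the same form, ending 89197 and 122153 nt before a coding 3′ end, with 23.3% and 22.9% and with 38.6% and 38.7% of reads. Agrn, the matrix proteoglycan agrin, gave 24.2% and 22.8%, the kinase Pkn2 20.7% and 24.3%, the membrane protein Tmem108 26.5% and 26.8%, and Fsd1l 6.47% and 6.68%.

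The last 6 members were enzymes, a lipid carrier and a gene of unassigned role. Apod, the lipid carrier apolipoprotein D, gave 71.2% and 73.7% of reads, and Pfas, of purine synthesis, 57.0% and 54.6% to a transcript of 5144 nt. Grcc10 stood at 597 and 558 TPM with 51.6% and 51.0% of reads on a 424-nt transcript that holds the 20 intronic bases printed above and covers only part of the 863-nt coding one, and 402 nt of it also overlap Gm45234 on the same strand. Plbd2, a lysosomal protein, gave 37.1% and 40.03% and Ptges2, a prostaglandin E synthase, 27.5% and 24.6%. Serhl, a serine hydrolase-like gene, gave 43.2% and 51.7%, but all 578 nt of its transcript overlap Rrp7a on the other strand.

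Outside the retained-intron transcripts, coding transcripts held the largest share of abundance in 52 of the 56 genes. Pagr1a had none. In Asb6 and Gga2 nonsense-mediated decay transcripts, which carry a coding frame with a premature stop, held more than the coding ones, at 22.0% and 25.4% of abundance against 0.543% and 1.45% in Asb6 and at 25.04% and 30.1% against 6.17% and 3.53% in Gga2. In Rsrp1 processed transcripts, which carry no coding frame, held 25.6% and 19.4% against 7.15% and 8.26%. Summed over all retained-intron transcripts of a gene, the members' median was 67.5% and 68.4% of abundance and 50.03% and 49.79% of reads. Over the 2981 coding genes with such a transcript the medians were 8.52% and 8.54% of abundance and 4.59% and 4.60% of reads. More than 1 retained-intron transcript was listed for 36 of 56 members.

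**Figure D3:**
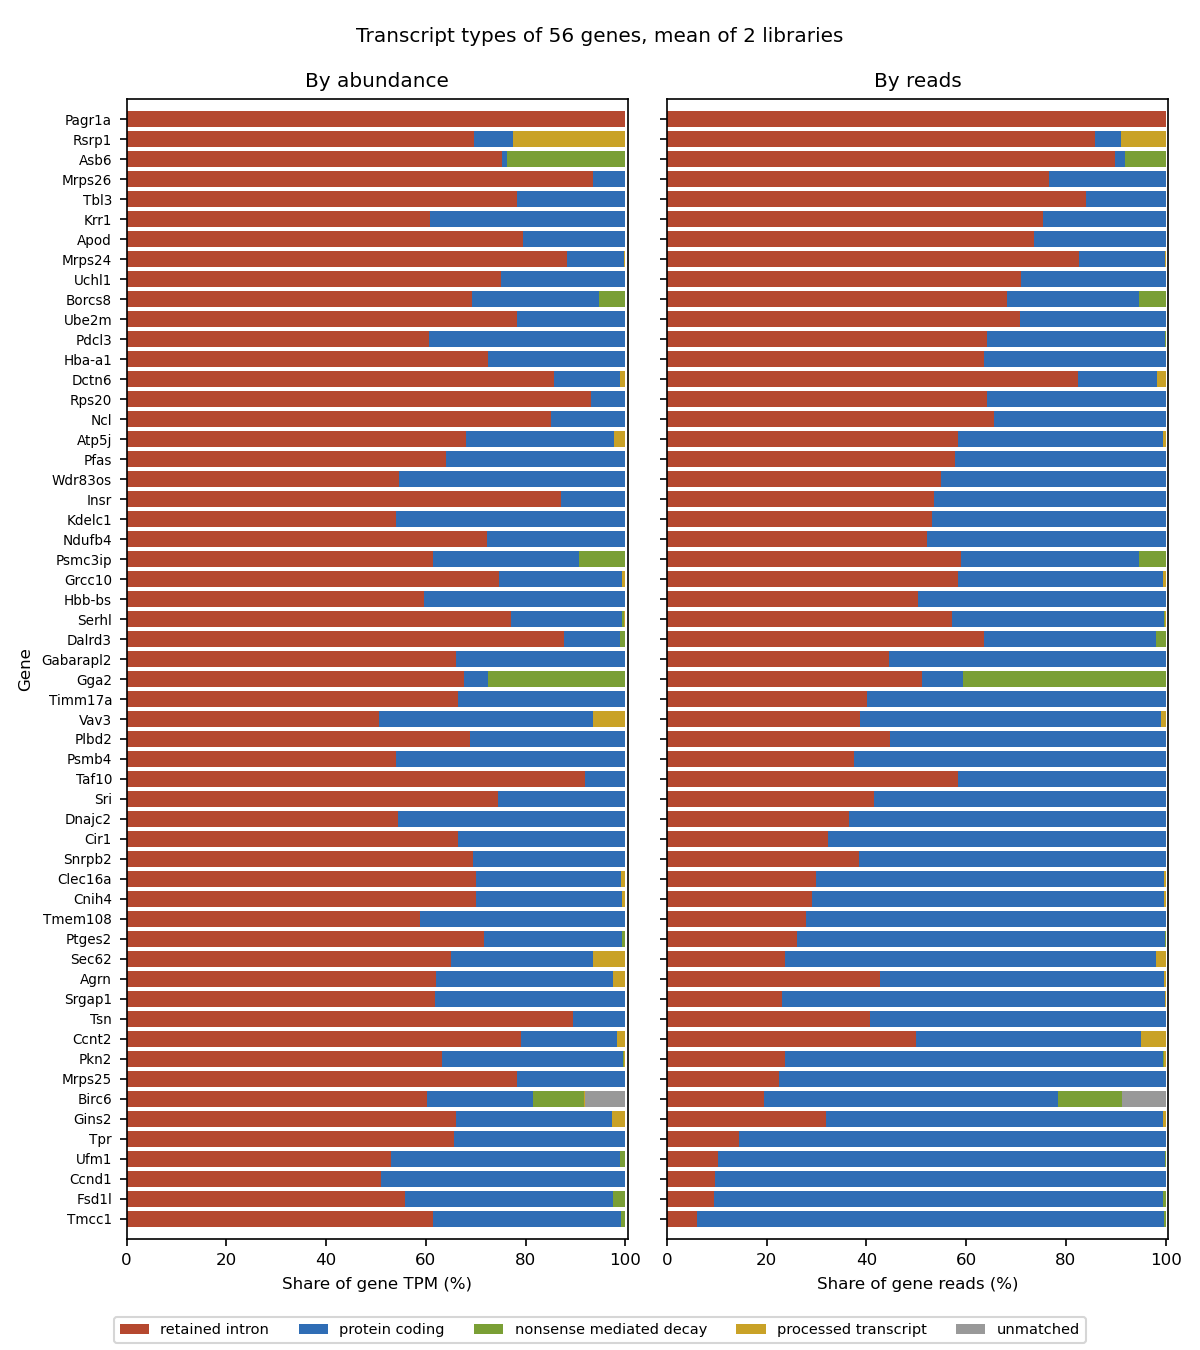
Share of each of the 56 genes by GENCODE transcript type, as a share of gene TPM (left) and of gene reads (right), means of 2 libraries, in the order of the mean read share. Red (retained intron) fills at least 50% of every bar on the left and shrinks toward the bottom of the right panel, where blue (protein coding) takes over.

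The rule itself keeps coding transcripts at no more than 50% of gene TPM, so their level is a description. Their summed TPM had a median of 15.75 in replicate 1 and 17.49 in replicate 2, against gene medians of 69.3 and 69.5, and was at least 20 in both libraries in 24 of 56 genes and under 20 in both in 32. Gene TPM itself depends on the transcript that reads are assigned to. When all reads of a gene were divided by the length of its longest coding transcript instead, the level became 48.65% of the deposited one in the median of 55 genes. On this scale 33 genes kept at least 20 TPM in both libraries, 20 were under 20 in both and 2 in 1 only. Rsrp1 was an exception upward, from 512 and 474 TPM to 729 and 703. Tsn moved from 393 and 338 to 66.6 and 61.1 TPM, and Timm17a from 131 and 121 to 14.1 and 12.9.

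**Figure D4:**
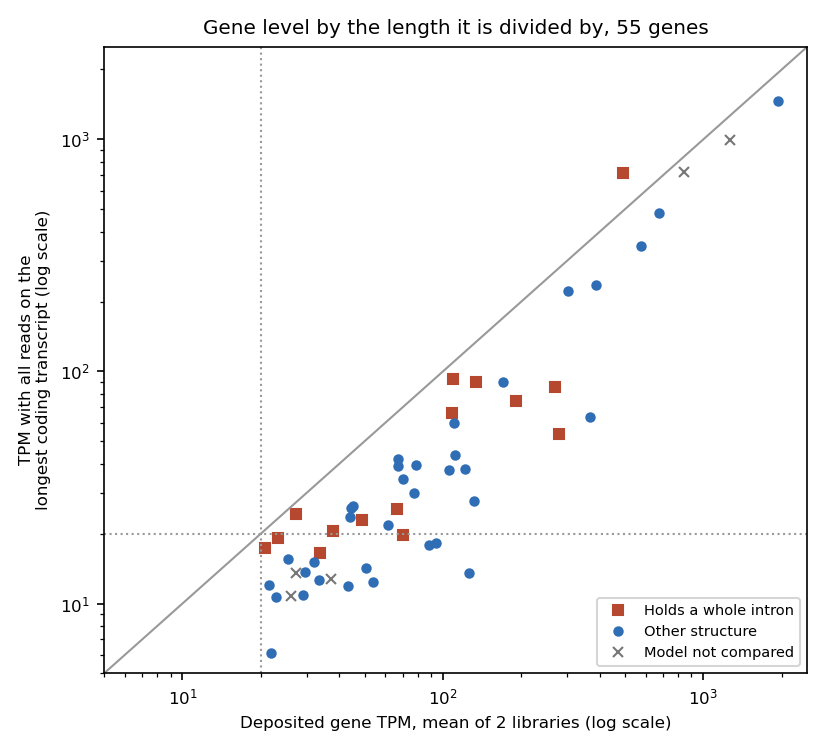
Deposited gene TPM (horizontal) against TPM with all reads divided by the longest coding transcript (vertical), both log scales, means of 2 libraries, for the 55 members with a coding transcript in the tables. Squares hold a whole intron, circles have another structure and crosses were not compared in structure. The solid line marks equality and dotted lines 20 TPM, and 20 genes lie under 20 TPM on the vertical scale in both libraries.

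The libraries gave close values for these genes, as for most genes. After scaling of the counts, none (0 of 56) differed 2-fold or more at the gene level, where 0.724% of 14361 genes did. None (0 of 56) of their retained-intron transcripts did, where 5.89% of 28838 transcripts did. The first count is near the share over all genes, so it is no result about the members. Their genes also had to reach 20 TPM in both libraries. Nothing is read from the second count either. The rule holds each transcript's share of its gene at 50% or more in both libraries, and the background has no such limit. No member gene or member transcript reached 1.5-fold. The background reaches down to a mean count of 50, while the members' transcripts had medians of 749.5 and 1007 reads, so the members were measured at greater depth. The median absolute log2 ratio was 0.07 for the members' genes and 0.13 for their retained-intron transcripts, against 0.10 and 0.18 over all genes and transcripts. No test is possible between single libraries.

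The 95% counting interval of the ratio excluded 1 for 24 of 56 genes and for 23 of 56 retained-intron transcripts. The share over all genes and transcripts was not computed, so nothing about the members is read from these counts. The 5 largest transcript ratios in each direction are given here. Ube2m was higher in replicate 2 as a gene (log2 0.52) and in its retained-intron transcript (log2 0.49, a ratio of 1.40 with a 95% counting interval of 1.27 to 1.55). In Hba-a1 the gene differed by 0.06 on the log2 scale and the retained-intron transcript by 0.42. Birc6 showed the opposite, with log2 ratios of -0.11 for the gene and -0.40 for the transcript (0.757-fold, interval 0.693 to 0.826), and Snrpb2 -0.16 and -0.35. Pkn2 followed with 0.10 and 0.33, Tmcc1 with 0.19 and 0.32 (transcript interval 0.942 to 1.67, which includes 1) and Plbd2 with 0.15 and 0.26. On the other side stood Gabarapl2 with -0.13 and -0.24, Sec62 with -0.18 for both and Dalrd3 with -0.05 and -0.18. The counting intervals do not include error in the assignment of reads to transcripts.

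The rule fixed a floor for IsoPct in both libraries, so genes that crossed it were left out and its spread is a description only. It differed between the libraries by a median of 1.765 percentage points, against 2.16 over 4553 genes with the same leader and more than 1 transcript. It was higher in replicate 2 in 24 genes, higher in replicate 1 in 29 and equal in 3 (Pagr1a, Tsn and Dnajc2). More than 5 points separated the libraries in 4 genes, with Hba-a1 at 13.52, Kdelc1 at 5.52 and Rsrp1 at 5.10 higher in replicate 2 and Ndufb4 at -5.42.

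**Figure D5:**
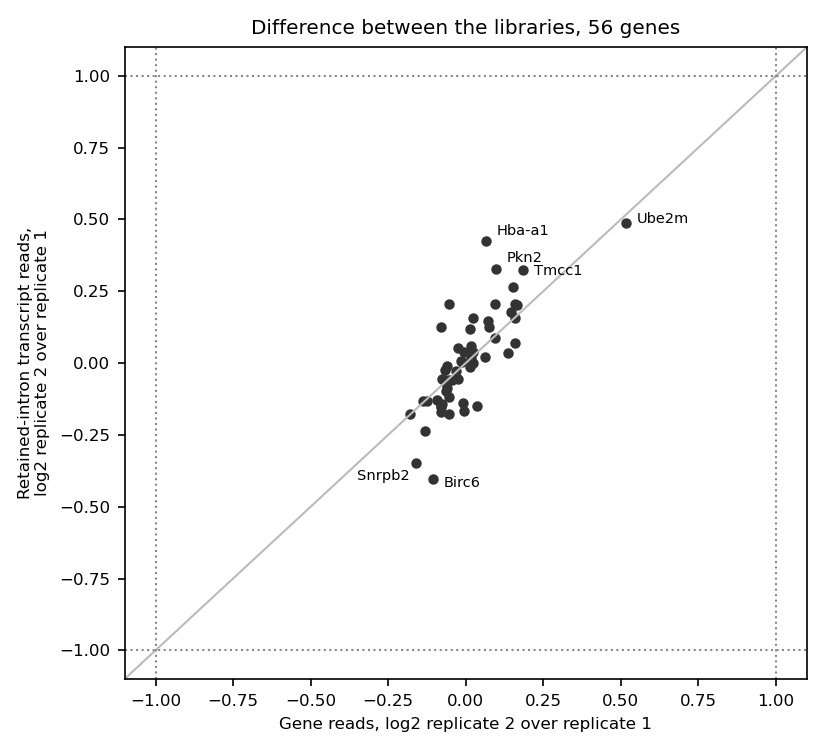
Log2 ratio of replicate 2 over replicate 1 for gene reads (horizontal) and for the reads of the leading retained-intron transcript (vertical) of 56 genes. The diagonal marks equal ratios and dotted lines a 2-fold difference. All points lie inside the dotted square, with Ube2m at 0.52 and 0.49 and Birc6 at -0.11 and -0.40.

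The rule's limits passed through a continuous range. Just inside the 50% limit stood Psmb4 (51.96% and 50.19%), Tsn (50.36% in both), Vav3, Ufm1 and Gga2. Just outside stood Rab8a, a GTPase of vesicle transport (49.97% and 52.95%), Tbcb (49.68% and 54.22%), Gbf1, Nup214 and Jmjd1c. For the level, Pfas, Plbd2 and Serhl were just inside and Lrp3 (19.53 and 22.79 TPM), Bach1 and Arsa just outside. Without the 50% limit, 163 of 6244 coding genes (2.61%) were led in both libraries by a retained-intron transcript, against 5711 (91.5%) led by a coding transcript, 130 (2.08%) by a processed transcript and 97 (1.55%) by a nonsense-mediated decay transcript.

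Lists of splicing genes and other gene groups held few members. Of 22 SR proteins and SR-like splicing factors at the level minimum 1 was a member (Rsrp1), of 36 spliceosomal snRNP proteins 1 (Snrpb2), and of 10 CLK and SRPK kinases and cyclin L genes, 36 RBM and other RNA-binding proteins, 28 hnRNP proteins and 14 genes of the exon junction complex and nonsense-mediated decay 0. Coding hosts of small nucleolar RNAs had 2 of 54 (Ncl and Rps20), cytosolic ribosomal proteins 1 of 78 (Rps20) and oxidative phosphorylation 1 of 49 (Atp5j). The last list left out Ndufb4 of respiratory complex I, which is a member, so its count covers the listed genes only. There were 0 members among 33 chromatin regulators, 37 neuronal and synaptic genes, 37 tRNA synthetases and translation factors and 19 kinesin, dynein and tubulin genes. The background is 0.897%, so lists of this size hold 0 or 1 member at that rate.

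Of the 10 kinases and cyclin L genes, 6 had a retained-intron transcript in the tables, and 0 met the rule. The median summed share over the 10 was 18.8% of abundance and 14.1% of reads, the highest of the lists, against 6.89% and 2.99% for the SR list. Over all 6244 genes the median was 0% of abundance, as only 2981 of them had such a transcript. Among those 2981 it was 8.52% and 8.54% in replicates 1 and 2. The highest of the 10 were Clk1 and Ccnl2. Clk1, a kinase that phosphorylates SR proteins, reached 49.0% and 53.4% of abundance and 58.3% and 59.0% of reads summed over such transcripts. Ccnl2, a cyclin L, reached 64.3% and 61.9% of abundance.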

How the data were processed

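The authors deposited 1 gene table and 1 transcript table per library on mm10 with GENCODE M4, according to a text file that accompanies each library. Column names are RSEM's, and for the aligner, the versions and the strand setting the text is silent (not given in the sources used here). The deposited expected counts are estimated reads that need not be whole, per the file headers. The deposited TPM values are divided by effective length and scaled to a common total with spike-ins included, per the file headers and column sums. FPKM, as the authors deposited it, is divided by length and by the aligned reads. IsoPct, a percent deposited per transcript, is that transcript's share of its gene's TPM, per the file headers. The authors also deposited interval bounds of TPM, with no confidence level.

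Gene and transcript types, exons and sequences came from GENCODE M21, matched by Ensembl identifier without version (42462 of 43346 genes and 101510 of 103639 transcripts matched). The M4 types were not used here. Of the members' transcripts, 50 of 56 had the same length in both releases. The members, lists and roles were chosen with earlier results of these data known. Members were found by the rule on deposited TPM and IsoPct. A read share is a transcript's expected count over the sum for its gene, with exact (Clopper-Pearson) 95% intervals that cover counting error only, as reads lack molecular identifiers and repeat molecules. Gene TPM was recomputed with all reads over the effective length (length minus 99 nt) of the longest coding transcript. Ratios between libraries used rounded expected counts plus 0.5 after TMM scaling in edgeR 4.0.16 (R 4.3.3), at a mean count of at least 50. Structures were read with pandas 2.3.3 in Python 3.11.15, an intron counting as held whole where 1 exon spans it and no coding transcript of the gene has an exon in it. The member rule was run on a made-up table with planted members well past the share limit, which checks the code only. The 2-fold rule was run on simulated counts.

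Genes were named by rule: the 10 highest levels, the 8 highest IsoPct, the 6 highest and 6 lowest read shares, the 5 largest ratios in each direction, those nearest to each limit and those in the lists. Other members are named once, under their role. Alternatives were other TPM and IsoPct minimums, posterior mean estimates, shares of reads, summed transcripts, FPKM, DESeq2 1.42.0 size factors, total counts and each library alone. Added after seeing the data were gene TPM over the longest coding transcript, transcripts of equal length in both releases, and the look at 3′ ends.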

Additional observations from a re-analysis of the deposited data

How the results depend on the processing

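The number of members, 56, depended on the limits. It was 33 at a TPM minimum of 50, 113 at an IsoPct minimum of 40 and 29 at 60, and 150 with all retained-intron transcripts of a gene summed. With gene TPM over the longest coding transcript (added after seeing the data), 33 of the 56 kept the level. That setting was applied to the 56 only, so it could remove members but not add any. The number of members was 63 to 65 with 1 library left out. The median IsoPct of 61.68% became 60.11% from posterior mean TPM and 61.34% to 61.66% without 1 library, and the median read share of 42.68% became 41.63% to 42.37%. Of the 23 genes with at least 50% of reads, 15 had at least 60%, and 24 to 25 reached 50% without 1 library. The median coding TPM of 15.55 was 15.75 to 17.5 without 1 library and 9.812 as FPKM. Genes led by a retained-intron transcript, 163, became 88 at a TPM minimum of 50, 84 by share of reads and 184 to 197 without 1 library. The counts of 0 past 2-fold stayed at 0 under all 5 alternatives run for each. No paired analysis was possible because the series has 1 group.

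Transcript shares rest on the M4 models and on short reads, and with 2 libraries they have no test. Members with few distinguishing bases, a near copy (Hba-a1) or overlapping genes (Serhl, Dalrd3, Wdr83os, Dctn6, Grcc10, Pagr1a) are the least certain. In M21, other genes on the opposite strand also overlap Gga2 (352 nt), Krr1 (352 nt) and Tmcc1 (258 nt). Kdelc1 has an overlap of 339 nt on the same strand, and some further members have smaller ones. Tmcc1, with 80.89 and 131 reads on its transcript, had the least depth.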

Other observations

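Reads and abundance picked different genes. By reads, 38 coding genes at the same level had 1 retained-intron transcript with at least 50% of the gene's reads in both libraries. Of these 23 were members and 15 were not: Ccnl2, Cttnbp2, Dlx1, Dynlt1c, Ercc1, Fastkd2, Gm21992, Gramd1a, Miip, Rpp21, Spaca6, Stk25, Tmed7, Tmem178b and Ypel4. Dlx1, a homeobox gene of forebrain GABAergic neurons, gave 66.5% and 67.6% of its reads to a retained-intron transcript of 3385 nt, which was 39.2% and 39.6% of its abundance. Ccnl2 gave 54.3% and 53.2% of reads and 33.4% of abundance in each library to a transcript of 4220 nt. Spaca6 gave 86.3% and 88.2% of reads and 44.3% and 47.8% of abundance to one of 4074 nt.

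Examples of genes of the fixed lists that had high summed shares without being members are given next. Dync1h1, the heavy chain of cytoplasmic dynein, had 66.6% and 66.8% of its abundance on retained-intron transcripts in sum, with 5.02% and 5.21% of its reads. Prrc2a, an RNA-binding protein, had 82.3% and 79.2% of abundance and 27.7% and 24.0% of reads. Tia1, a splicing and stress-granule protein, stood at 70.8% and 70.2% of abundance and 58.9% and 58.6% of reads, and Rbm39, an SR-like splicing factor, at 62.4% and 64.5% and at 39.1% and 40.6%. Gria2, an AMPA receptor subunit, had 58.8% and 55.6% of abundance and 49.9% and 47.4% of reads on such transcripts. Luc7l2 (58.8% and 56.9% of abundance), Rbm28 (55.3% and 57.8%), Chd3 (53.9% and 55.8%) and Sf3b1 (53.8% and 50.9%) also passed 50% in both libraries. Ccnl2, given above, did so too. None of the genes in this paragraph had a single transcript that met the rule.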
